A study of Mus musculus with 6 samples.

Results

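The genes for the GDNF receptor complex and the FGF receptors were followed in the DNA methylation data of cultured spermatogonia (GS cells). They are 10 genes, *Gfra1*, *Gfra2*, *Gfra3*, *Gfra4*, *Ret*, *Gdnf*, *Fgfr1*, *Fgfr2*, *Fgfr3*, and *Fgfr4*, taken by name from the 31751 genes of the deposited table, in which each CpG site carries the name of the gene with the closest transcription start site (TSS). A site was used if each of the 6 samples covered it with 10 reads or more. The 10 genes held 909 of the 681804 such sites, from 24 for *Gfra3* to 176 for *Fgfr3*, and all 10 genes were represented. Of these, 344 sites lay within 1000 bp of the TSS and are called promoter sites, and 565 lay farther away and are called distal sites.

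GDNF is a secreted ligand that binds a GFRA coreceptor, a protein anchored to the outside of the cell membrane by a lipid, and the pair then activates the receptor tyrosine kinase RET. GFRA1 is the preferred coreceptor of GDNF itself, while GFRA2, GFRA3, and GFRA4 are best known for binding the related ligands neurturin, artemin, and persephin. FGFs such as FGF2 act through the receptor tyrosine kinases FGFR1 to FGFR4, and both routes lead to RAS, MAPK, and PI3K-AKT signaling. In the testis, GDNF comes mainly from Sertoli cells and drives the self-renewal of spermatogonial stem cells, which carry GFRA1 and RET, and GS cells are maintained with GDNF and FGF2 in the medium. CpG-rich promoters are usually unmethylated whether or not their gene is transcribed, whereas gene bodies and intergenic DNA are usually methylated, so a level of methylation is not a level of expression.

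Both groups were GS cells of genotype DBA/Tg14(act-EGFP-OsbY01), a mouse line in which an actin promoter drives the EGFP transgene and which was crossed onto DBA/2. Space GS cells were cryopreserved for 6 months with a stay on the ISS, Ground GS cells were cryopreserved for 6 months on Earth, and both were thawed and passaged again on mouse embryonic fibroblast feeder cells, in medium with GDNF and FGF2, before DNA was taken. Each group had 3 replicates, which the series describes as biological. Reduced representation bisulfite sequencing (RRBS) enriches CpG-rich fragments and tells methylated from unmethylated cytosines, and the level used here is the percent of reads that were methylated, from reads summed over the sites of a promoter, region, or gene. Values of a group are means of its 3 replicates ± SD.

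The depth of the 6 libraries was alike. Reads summed over all covered sites ranged from 28535973 to 33743845 per sample and those on the 10 genes from 28361 to 33340, with a median coverage of 29 to 34 reads at a member site. At the minimum of 10 reads, 1 read is worth 10 percentage points. Over all genes, the mean promoter level was 4.64% ± 0.223 in Space and 4.55% ± 0.351 in Ground GS cells (exact permutation test, two-sided, p = 0.7), and the mean distal level was 58.6% ± 0.252 and 58.3% ± 0.540 (p = 0.3). This design cannot give a p under 0.1. Promoters of germline genes that somatic cells methylate, among them *Dazl* and *Ddx4*, were at 0.740% to 3.68% (9 of 10 genes measured) in the mean over 6 samples, which does not go against the labelled cell type. The list of fibroblast genes for the feeder cells had 2 of 6 promoters measured, *Twist1* and *Pdgfrb*, at 1.27% and 3.02%, and does not give a measure of feeder DNA.

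The TSS that the table assigns to each gene decides which sites count as promoter, so it was compared with the GENCODE M21 annotation by the spacing to neighboring TSSs, since the table is in another build (mm39 in the submitters' processing notes) and no coordinate was carried over. For 9 genes, at least 10 of the 10 to 12 neighboring spacings were the same as those from the first start of the gene in M21. For *Gdnf* 6 of 12 were the same, and the median difference of its spacings was 1.5 bp. The first start is not that of most transcripts for every gene. Of 19 *Fgfr1* transcripts in M21, 18 begin at least 5105 bp downstream of the first, and 8 of them begin at 5105 to 6183 bp. Of 27 *Fgfr2* transcripts, 26 begin 2857087 to 2955466 bp downstream of the first, whose TSS in the table lies 1004 bp from that of *Ctbp2*. The promoter sites named for *Fgfr2* therefore belong to this far upstream start, the farthest *Fgfr2* site in the set being 52504 bp downstream of it, and the DNA near its other starts was not analysed here. *Gfra4* transcripts begin in M21 at up to 1631 bp.

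Promoter sequence was taken from RefSeq (GRCm38.p6), with 250 bases before and 50 after a start. It held 6 of the 10 genes, in 9 windows. The 3 windows of *Gfra1* and *Gfra4*, and 1 CpG-dense window of *Fgfr3* for contrast, are given 5′ to 3′. Each CG dinucleotide, the target of methylation, is in capitals. They are chr19:58455349-58455648 (minus strand) for *Gfra1*, chr2:131043039-131043338 and chr2:131042633-131042932 (minus strand) for the first and second start of *Gfra4*, and chr5:33722056-33722355 (plus strand) for the second start of *Fgfr3*.
Gfra1: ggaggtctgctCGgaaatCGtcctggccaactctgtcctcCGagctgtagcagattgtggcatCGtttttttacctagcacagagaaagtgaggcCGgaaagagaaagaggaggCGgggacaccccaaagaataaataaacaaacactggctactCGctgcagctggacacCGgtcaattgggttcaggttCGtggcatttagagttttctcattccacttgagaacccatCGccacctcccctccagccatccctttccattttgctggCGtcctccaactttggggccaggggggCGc
Gfra4, first start: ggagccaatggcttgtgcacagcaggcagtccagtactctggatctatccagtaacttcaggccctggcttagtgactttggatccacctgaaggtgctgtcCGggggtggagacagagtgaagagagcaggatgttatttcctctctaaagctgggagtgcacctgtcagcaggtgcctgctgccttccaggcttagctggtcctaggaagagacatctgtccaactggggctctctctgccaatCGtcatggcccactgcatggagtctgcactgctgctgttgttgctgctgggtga
Gfra4, second start: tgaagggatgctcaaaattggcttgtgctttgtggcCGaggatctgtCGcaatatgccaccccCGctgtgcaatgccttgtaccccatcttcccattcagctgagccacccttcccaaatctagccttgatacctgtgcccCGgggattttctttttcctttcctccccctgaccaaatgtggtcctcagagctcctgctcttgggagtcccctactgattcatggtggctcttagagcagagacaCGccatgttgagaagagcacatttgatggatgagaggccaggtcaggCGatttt
Fgfr3, second start: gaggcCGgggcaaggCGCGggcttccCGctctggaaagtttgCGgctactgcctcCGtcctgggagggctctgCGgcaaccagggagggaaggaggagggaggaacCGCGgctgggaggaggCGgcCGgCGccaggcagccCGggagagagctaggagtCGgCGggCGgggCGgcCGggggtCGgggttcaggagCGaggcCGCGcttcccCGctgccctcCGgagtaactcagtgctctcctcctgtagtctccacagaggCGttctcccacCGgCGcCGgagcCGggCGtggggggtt
The *Gfra1* window held 12 CG, the *Gfra4* windows 2 and 6, and the *Fgfr3* window 30, against a median of 7 over 32851 windows. The starts of *Gfra4* are 406 bp apart, and its windows and that of *Fgfr2*, with 4, held the fewest CG of the 9. The *Fgfr2* window is chr7:130266759-130267058, whereas its TSS in the table's build is chr7:132725079. It is not taken as the window of the *Fgfr2* promoter sites measured here. The letters CCGG, the cut site of MspI, the enzyme on which RRBS is usually based (the same on both strands), occurred in all 9 windows and in 52.8% of all windows. The measured sites could not be placed on these windows, because the builds differ. The nearest covered *Gfra4* site lay 662 bp downstream of the TSS, beyond both *Gfra4* windows if the starts are the same. The CG counts of the windows are therefore not those of the DNA whose levels are given below.

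Promoter sites were almost all unmethylated. Of 344 sites, 339 had a mean level of at most 10% over the 6 samples, 5 were between 10% and 90%, and 0 were at 90% or above. This is 98.5% of member promoter sites, against 98.7% of the promoter sites of all genes. The 5 exceptions were the 3 sites of *Gfra4* and 2 of the 4 sites of *Fgfr1*. The nearest sites on either side of the 1000-bp limit were both of *Gfra1*, with 1.37% at 992 bp and 1.36% at 1005 bp.

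Among the coreceptors, *Gfra1* (ENSMUSG00000025089, minus strand, TSS at chr19:58444341) had 19 promoter sites, with levels of 2.06%, 3.19%, and 0.798% in Space and 4.80%, 1.39%, and 2.07% in Ground GS cells. The groups overlapped, with means of 2.02% ± 1.20 and 2.75% ± 1.81. *Gfra2* (ENSMUSG00000022103, plus strand, chr14:71127560) was at 1.45% ± 1.04 and 2.36% ± 1.25 over 25 sites, and *Gfra3* (ENSMUSG00000024366, minus strand, chr18:34853440) at 1.46% ± 1.42 and 1.05% ± 0.233 over 21 sites.

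*Gfra4* (ENSMUSG00000027316, minus strand, chr2:130885008), the persephin coreceptor, was the one member with a methylated promoter window. Its 3 sites, 662 to 766 bp downstream of the TSS and thus beyond the second start, were at 84.4%, 87.3%, and 79.5% in Space and 84.3%, 88.3%, and 89.6% in Ground GS cells. The 3 sites were covered by the same reads, 39 to 63 per sample over the sites, and carry little independent information. The window around the first start, printed above, holds few CG, and no covered site lay within 500 bp of the TSS.

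*Ret* (ENSMUSG00000030110, minus strand, chr6:118174679), the signaling subunit, had 50 promoter sites in 1 run from 376 to 950 bp downstream of its TSS. They were at 1.73%, 1.10%, and 1.73% in Space and 1.14%, 1.21%, and 1.34% in Ground GS cells. *Gdnf* (ENSMUSG00000022144, plus strand, chr15:7840327), the ligand, had 65 sites from 382 bp upstream to 362 bp downstream of its TSS, at 1.43% ± 0.800 and 1.47% ± 0.687. Both genes lay in the range of the unmethylated coreceptor promoters.

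Of the FGF receptors, *Fgfr2* (ENSMUSG00000030849, minus strand, chr7:132725079), *Fgfr3* (ENSMUSG00000054252, plus strand, chr5:33879018), and *Fgfr4* (ENSMUSG00000005320, plus strand, chr13:55300453) had 75, 51, and 31 promoter sites. Their levels in Space and Ground GS cells were 1.69% ± 0.744 and 1.66% ± 0.382 for *Fgfr2*, 1.76% ± 0.820 and 2.48% ± 0.0673 for *Fgfr3*, and 1.18% ± 0.852 and 2.18% ± 1.14 for *Fgfr4*.

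*Fgfr1* (ENSMUSG00000031565, plus strand, chr8:26003670) differed from the other FGF receptors by its intermediate level. Its 4 promoter sites, 373 to 503 bp downstream of the first start, were at 32.3%, 29.5%, and 23.4% in Space and 22.2%, 17.3%, and 26.2% in Ground GS cells. The groups overlapped, and the 52 to 129 reads per sample over the 4 sites limit the precision. Within this stretch of 131 bp the sites differed from one another, with means over the 6 samples of 55.7% at 373 bp, 4.21% at 454 bp, 7.65% at 462 bp, and 33.0% at 503 bp. At the downstream starts, by contrast, 93 sites from 5117 to 6201 bp were at 2.43% ± 1.10 and 1.25% ± 0.448.

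**Figure D1:**
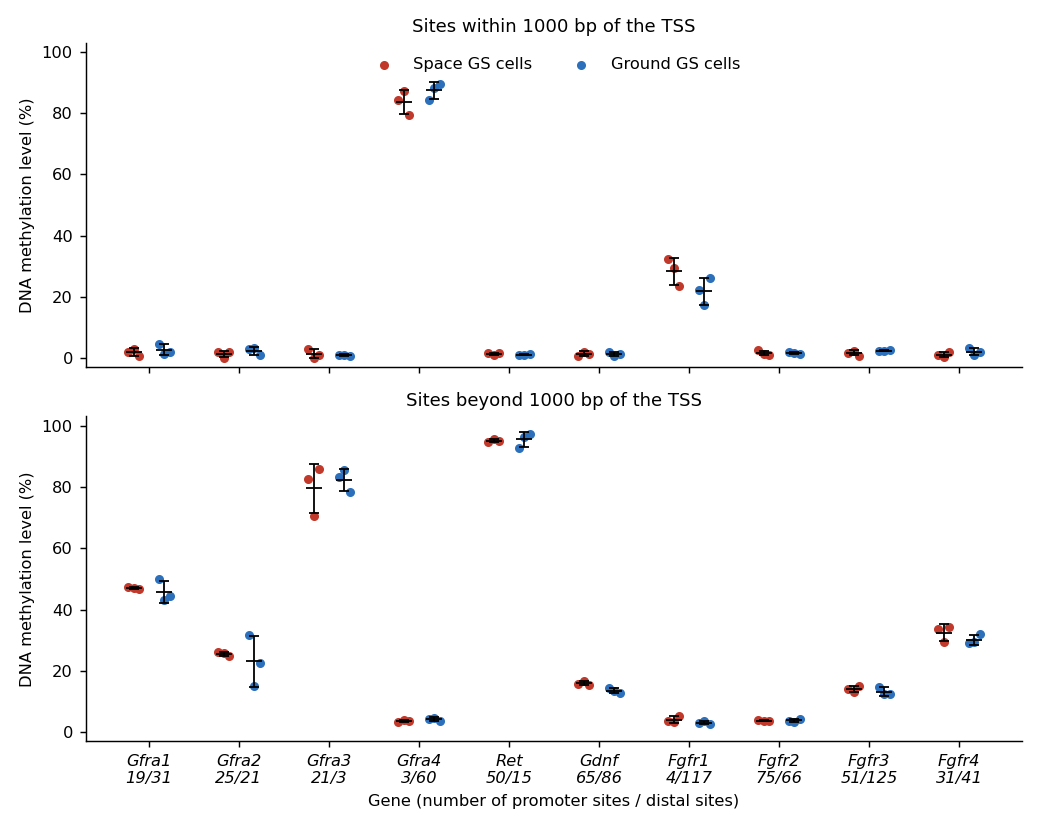
DNA methylation level (%, y axis) of each gene (x axis) at promoter sites (top) and distal sites (bottom). Points are the 3 Space (red) and 3 Ground (blue) replicates, and bars are the mean ± SD. In the top panel *Gfra4* lies near 85.6% and *Fgfr1* near 25.1%, and the other 8 genes lie under 5% in all 6 samples.

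Promoter levels were compared between Space and Ground GS cells by a quasi-binomial test, which weighs methylated against total reads, over all genes with at least 3 promoter sites. Of the 10 member genes, 0 passed an adjusted p of 0.05 and 0 had an unadjusted p under 0.05, against 0 (0.0%) and 763 (5.31%) of the 14361 genes tested. The smallest adjusted p over all genes was 0.912, and edgeR and limma also gave 0 genes. The replicates of the groups overlapped in all 10, while they did not overlap in 9.55% of all genes. The median Space minus Ground difference was -0.38 percentage points over the members and 0.0872 over all genes. The largest differences belonged to the genes with the fewest sites, 6.48 for *Fgfr1* (adjusted p = 0.961) and -3.67 for *Gfra4* (adjusted p = 0.986), and the others were between -1.0 and 0.406.

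Distal sites of the 10 genes were more often unmethylated than distal sites in general. Of 565, 450 (79.6%) were at 10% or less, 57 (10.1%) were between, and 58 (10.3%) were at 90% or more, whereas these shares were 48.8%, 16.5%, and 34.7% of 291236 distal sites of all genes. RRBS chooses CpG-rich fragments, and many of these low sites continue the promoter run or form separate low runs near other starts, and the shares are given as a description.

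*Ret* was methylated at all its distal sites. All 15 distal sites were at 83.6% or more, 4 of them 3873 to 3769 bp upstream at 95.1% to 99.0% and 11 from 3722 to 28979 bp downstream at 83.6% to 100%, on both sides of the unmethylated promoter run. The distal level was 94.6%, 95.7%, and 95.2% in Space and 92.8%, 96.4%, and 97.4% in Ground GS cells. The genes with the most similar promoter and distal levels over the 6 samples were *Pkp1* and *1700028E10Rik*, with a root mean square difference of 0.616 and 0.625 percentage points over 12 values among 8422 genes.

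*Gfra1* showed the end of its unmethylated stretch within the covered sites. Its 30 sites from 213 to 2276 bp were at 0.0% to 5.47%, and 5 sites at 2628 to 2712 bp had mean levels from 54.9% to 91.6%. No site was covered between 2276 and 2628 bp, and the level of the 5-site region was 66.2% ± 4.11 in Space and 71.0% ± 6.33 in Ground GS cells. Farther downstream, 15 sites from 10288 to 102224 bp ranged from 21% to 100%. A region of 4 sites at 78837 to 78921 bp was intermediate, at 62.1% ± 5.03 and 57.7% ± 2.55. Over all 31 distal sites *Gfra1* was at 47.1% ± 0.318 and 45.8% ± 3.64, and the closest profiles were those of *Bcdin3d* and *Gm56911*, at 1.27 and 1.52 percentage points.

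The other coreceptors differed from it. *Gfra2* had 13 low distal sites next to the promoter and 8 intermediate ones, 3 of them at 5755 to 5793 bp with 81.4% ± 2.85 and 80.7% ± 5.64 and 5 from 35483 to 35934 bp with site means of 12.2% to 51.1%. *Gfra3* had only 3 distal sites, of which the 2 at 3955 and 3959 bp were at 98.4% and 99.1% over the 6 samples. *Gfra4* was inverted, with 58 sites from 1478 to 2042 bp at 0.0% to 5.89%, where M21 has its last starts at 1577 and 1631 bp, and 2 sites from 55078 to 55149 bp at 97.2% and 98.2%.

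*Gdnf* carried both kinds of distal DNA. A run of 60 sites from 1448 to 4991 bp was low, with site means from 0.595% to 9.35%, and RefSeq gives *Gdnf* a second start 3679 bp after the first. A group of 9 sites from 123366 to 123585 bp was at 1.54% to 3.66%, and 8 of the sites between them, from 32186 to 111625 bp, were at 95.4% to 100%. Upstream, 6 sites from 7490 to 7322 bp before the TSS were intermediate, at 52.6%, 70.7%, and 63.8% in Space and 54.0%, 59.5%, and 56.6% in Ground GS cells.

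Most distal sites of *Fgfr1* (98.3%), *Fgfr2* (95.5%), and *Fgfr3* (84.8%) were at 10% or less, against 34.1% for *Fgfr4* and 79.6% over the 10 genes. *Fgfr1* had 115 low sites from 1153 to 6586 bp and 2 sites 7632 and 7555 bp upstream at 92.1% and 98.6%. *Fgfr2* had 63 distal sites at 10% or less and 3 from 17890 to 52504 bp at 89.3% to 96.8%. *Fgfr3* had low sites on from its promoter, 100 in all from 6 bp upstream to 2418 bp downstream at 0.556% to 4.90%, a second low group of 57 sites from 29141 to 25569 bp upstream, and methylated groups of 10 sites upstream (88.4% to 97.6%) and 8 sites from 8310 to 12535 bp downstream (95.8% to 100%).

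*Fgfr4* had the largest intermediate group, 22 sites from 7286 to 9179 bp with site means from 15.3% to 69.0%. Its 14-site region at 7286 to 7491 bp was at 29.4% ± 3.12 in Space and 23.6% ± 7.95 in Ground GS cells, and its 8-site region at 8963 to 9179 bp at 48.7% ± 1.5 and 54.2% ± 5.53. Of the 41 distal *Fgfr4* sites, 25 lay between 10% and 90%, the highest number among the 10 genes, followed by *Gfra1* with 10 of 31.

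**Figure D2:**
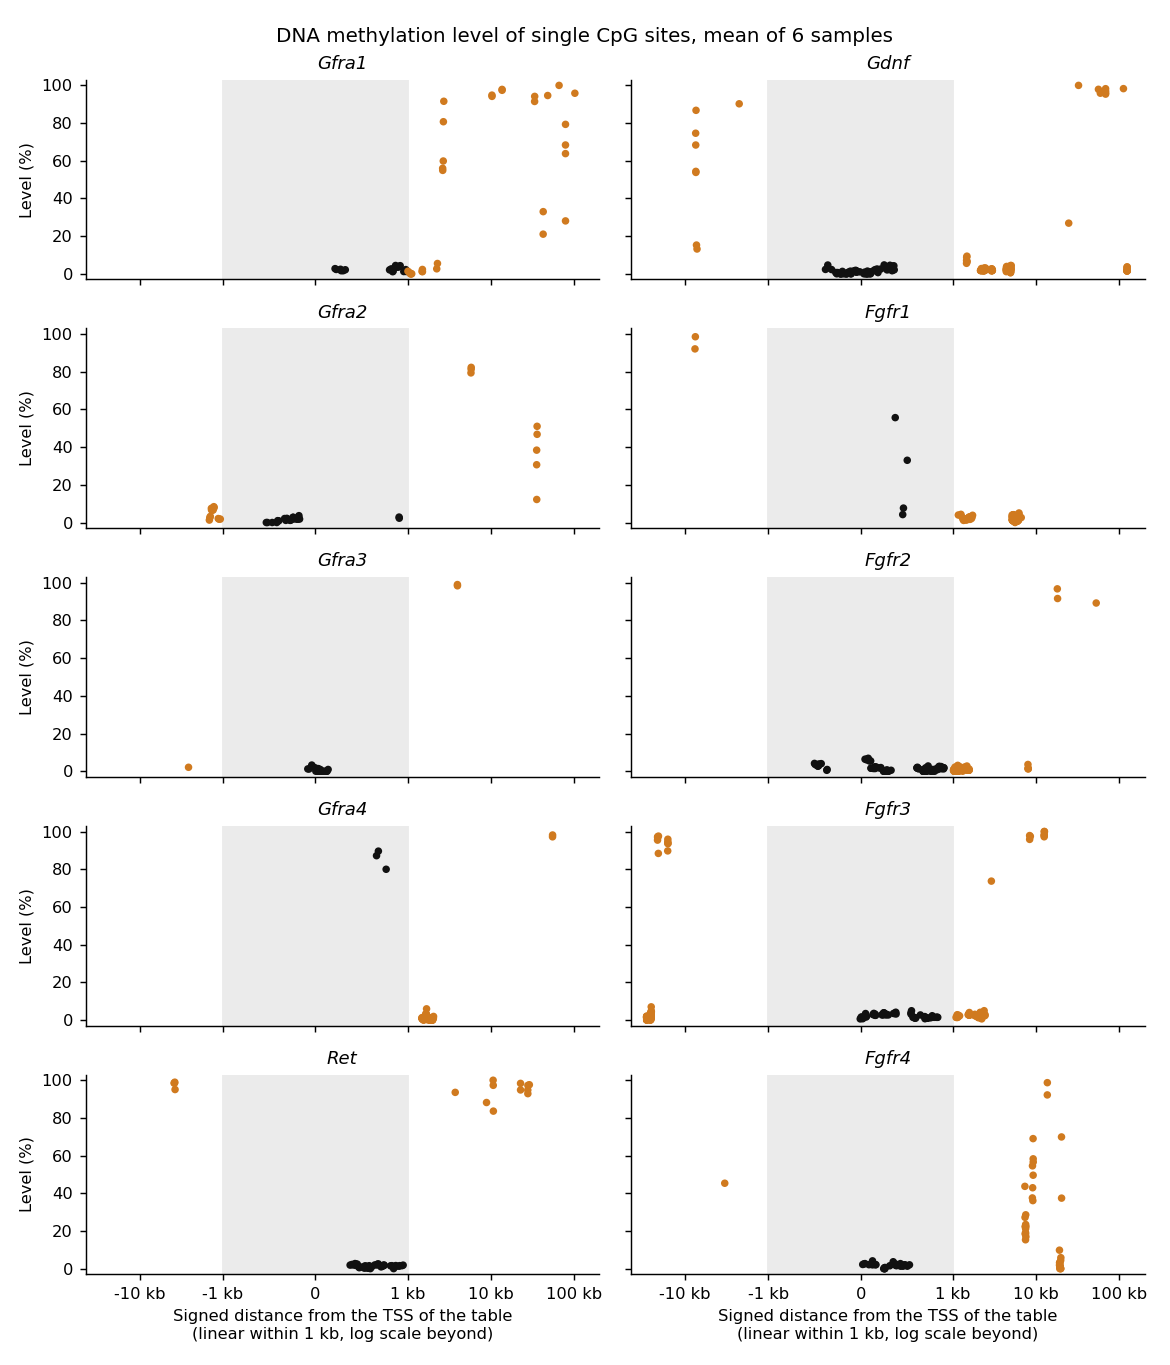
DNA methylation level (%, y axis, mean of 6 samples) of each covered CpG site against its signed distance from the TSS of the table (x axis, linear within 1 kb and log scale beyond, downstream positive), one panel per gene. Black points are promoter sites in the shaded window, and orange points are distal sites. Promoter sites lie near 0 except in *Gfra4* and *Fgfr1*, and the low orange runs of *Gfra4* and *Fgfr1* lie downstream of the window.

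The distal level minus the promoter level was taken within each sample. It was positive in all 6 samples for 8 genes, as in 87.4% of the 8422 genes with at least 3 sites of each kind, and negative in all 6 for *Gfra4* and *Fgfr1*, as in 2.42% of these genes. Its mean over the 6 samples was 94.0 percentage points for *Ret*, 79.7 for *Gfra3*, 44.0 for *Gfra1*, 29.6 for *Fgfr4*, 22.4 for *Gfra2*, 13.3 for *Gdnf*, 11.5 for *Fgfr3*, and 2.12 for *Fgfr2*, with -81.7 for *Gfra4* and -21.5 for *Fgfr1*. The median of all genes was 55.2, with quartiles of 14.3 and 90.5, and *Ret* and *Gfra3* lay above it. For each of the 10 genes the exact sign-flip test over 6 samples gave p = 0.03125 (two-sided), which is the smallest p it can give.

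Several of these values, and the order of the genes, rest on where the window lies. With a window of 2000 bp, the value was 32.5 for *Gfra4*, -1.25 for *Fgfr1*, 66.7 for *Gfra1*, 54.3 for *Gfra2*, and 28.6 for *Fgfr2*. With a window of 500 bp, it was 13.5 for *Ret* and 27.3 for *Gfra1*, below *Gfra3*. Under the 3 windows *Gfra3* stayed at 79.7, *Fgfr4* at 27.9 to 29.6, and *Gdnf* at 13.3 to 13.4. The genes closest to *Fgfr1* in promoter and distal level were *Asic4* and *Hes3*, at a distance of 4.34 and 5.47 percentage points.

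Whether this promoter to distal difference depended on the group was asked with an exact permutation of the samples. *Gdnf* had 15.2, 14.6, and 13.9 percentage points in Space and 12.4, 12.6, and 11.2 in Ground GS cells, so all 3 Space values lay above all 3 Ground values (p = 0.1, two-sided exact permutation, the smallest possible). With at least 20 reads per site the *Gdnf* groups overlapped, at 10.8, 9.68, and 7.82 in Space and 8.73, 6.56, and 7.75 in Ground GS cells. The groups overlapped in the other 9 genes (exact permutation p from 0.2 to 1.0), and over all genes they did not overlap in 9.94%. Without Ground replicate 1, 6 of the 10 genes did not overlap, in a comparison of 3 with 2 samples in which 21.6% of all genes did not overlap.

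*Gdnf* was the only member whose distal level did not overlap between the groups. Its promoter difference was -0.039 percentage points, so this is largely the same difference as the one above and not a second result. The distal level was 15.8%, 16.7%, and 15.5% in Space and 14.5%, 13.3%, and 12.8% in Ground GS cells. It was taken over 86 sites with 2387 to 2957 reads, and the difference was 2.46 percentage points. The unadjusted p was 0.00622 and the adjusted p 0.897 (quasi-binomial test with limma's moderation). Of its 8 distal regions, 6 had a higher and 2 a lower level in Space, and their adjusted p ranged from 0.885 to 0.980. The difference was 1.38 when each site was weighted equally (unadjusted p = 0.162, limma), and edgeR gave an unadjusted p of 0.0634.

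For the distal sites per gene, 0 of 10 members passed the adjusted threshold and 1 had an unadjusted p under 0.05, against 0 (0.0%) and 942 (5.48%) of 17203 genes. Groups did not overlap in 1 member and in 9.74% of all genes, 5.86% being higher in Space. The other distal values in Space and Ground GS cells were 25.6% ± 0.587 and 23.1% ± 8.33 for *Gfra2*, 79.5% ± 8.10 and 82.3% ± 3.64 for *Gfra3*, 3.49% ± 0.314 and 4.29% ± 0.525 for *Gfra4*, 4.09% ± 1.13 and 3.11% ± 0.471 for *Fgfr1*, and 3.78% ± 0.0611 and 3.81% ± 0.462 for *Fgfr2*. They were 14.1% ± 0.908 and 13.2% ± 1.45 for *Fgfr3* and 32.4% ± 2.76 and 30.1% ± 1.65 for *Fgfr4*.

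The *Gfra2* distal level varied most between the Ground replicates, which were at 31.6%, 15.0%, and 22.6%. The 3 highly methylated sites at 5755 to 5793 bp supplied 96 of 544, 39 of 494, and 81 of 461 of their reads. Of these, 74, 34, and 63 were methylated. The sites from 35483 to 35934 bp gave 53, 28, and 31 methylated reads, and those from 1379 to 1277 bp upstream 37, 7, and 8. The part of each in the result was not tested. With each site weighted equally the difference changed from 2.53 to -2.88, and without Ground replicate 2 it was -1.51. It was 6.81 without Ground replicate 1 and 10.1 beyond 2000 bp (unadjusted p = 0.0130, adjusted p = 0.918, quasi-binomial test with limma's moderation), so no direction is given for this gene.

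**Figure D3:**
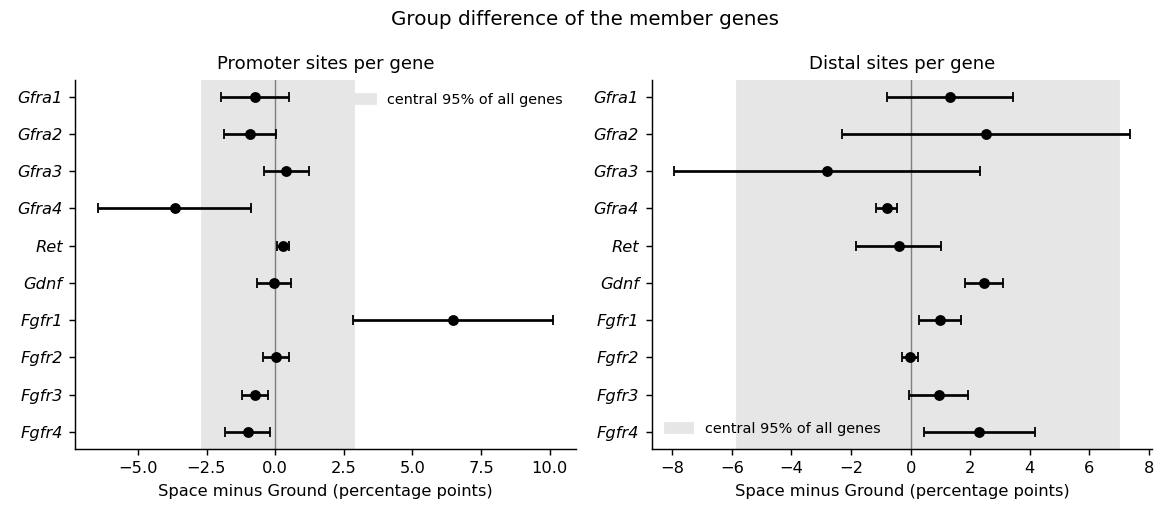
Space minus Ground difference in percentage points (x axis) for each gene (y axis) at promoter sites (left) and distal sites (right). Points are the differences of group means, bars are 1 standard error from the replicate SDs, and the gray band holds the central 95% of all genes. *Fgfr1* and *Gfra4*, with 4 and 3 promoter sites, lie outside the band at promoters, and all 10 genes lie within it at distal sites.

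Single CpG sites were then compared by the difference of 20 percentage points that the study uses, and by the test. Of the 909 sites, 4 exceeded it, of which 3 had the higher level in Space and 1 in Ground GS cells. This is 0.440% of the member sites against 0.196% of all covered sites (0.113% higher and 0.0826% lower). These shares mix promoter and distal sites, and distal sites made up more of the member sites (565 of 909) than of all sites (291236 of 681804). At distal sites the share was 0.531%, against 0.421% over all genes. At promoter sites it was 0.291%, which is 1 site, against 0.0277%. The 4 sites belonged to *Gfra1*, *Gfra2*, *Fgfr1*, and *Fgfr4*, and none passed the adjusted threshold. Wilson intervals given with them cover counting error only, since reads without molecular identifiers may be copies of 1 molecule.

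The *Gfra1* site lay 42548 bp downstream of the TSS, at chr19:58401793. It was methylated in 12 of 26, 9 of 24, and 12 of 25 reads in Space (46.2%, 37.5%, and 48.0%) and in 6 of 26, 3 of 14, and 5 of 23 reads in Ground GS cells (23.1%, 21.4%, and 21.7%). All Space values were higher, but the 95% interval of Space replicate 2, 21.2% to 57.3%, included the 3 Ground levels. The difference was 21.8 percentage points (unadjusted p = 0.0193, adjusted p = 0.818, quasi-binomial test with limma's moderation). The next covered site, 70 bp away, differed by 0.806.

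The *Gfra2* site lay 35922 bp downstream, at chr14:71163482. It was at 69.7%, 64.1%, and 53.8% in Space (21 to 25 methylated reads of 33 to 39) and at 42.5%, 42.9%, and 33.3% in Ground GS cells (9 to 17 of 21 to 40). The groups did not overlap, with a difference of 23.0 (unadjusted p = 0.00573, adjusted p = 0.792). The site 12 bp away was at 55.2% and 38.4% on average, a difference of 16.9.

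The *Fgfr1* site lay in the promoter window at 373 bp, at chr8:26004043. It was at 83.9%, 71.9%, and 43.8% in Space and 38.9%, 38.5%, and 57.1% in Ground GS cells, so the groups overlapped and the mean difference of 21.7 came with SDs of 20.6 and 10.7. Without Space replicate 1 the difference was 13.0. The sites 81 and 89 bp away, which had the same coverage in each sample, were at 19% or less in every sample. The *Fgfr4* site at 9032 bp, chr13:55309485, was at 30.4%, 20%, and 47.4% in Space and 83.3%, 41.2%, and 35.3% in Ground GS cells, with Ground replicate 1 above the other 5 samples and an overlap of the groups.

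Among the 104 member sites with a mean level of 5% to 95%, 0 passed the adjusted threshold (0 of 92042, or 0.0%, over all genes), in the main test and with edgeR and limma, and 14 had an unadjusted p under 0.05 (13.5%, against 5.61% over all genes). Of these 14, 7 were neighboring sites upstream of *Gfra2* that share their reads. Groups did not overlap at 18 of the 104 sites, of which 8 were above and 10 below in Space, against 9.07% of all such sites (4.94% above and 4.13% below). Neighboring sites are not independent, so the counts of sites overstate how often the DNA differed.

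**Figure D4:**
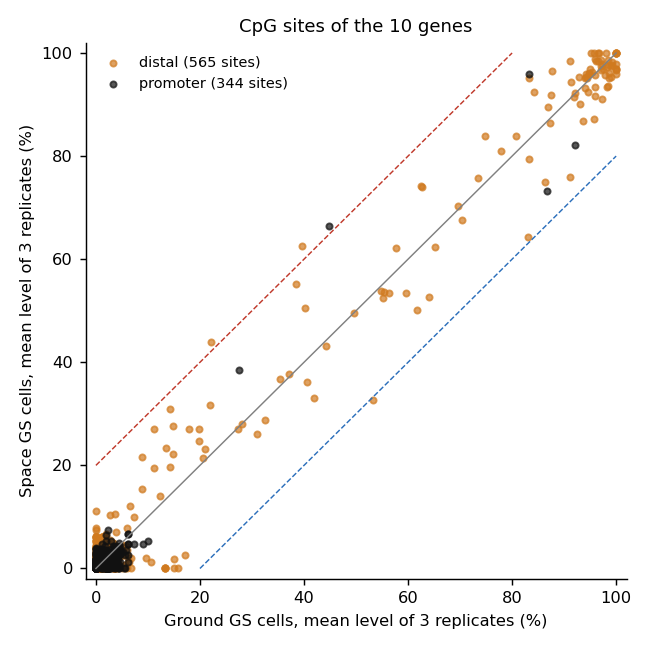
Mean DNA methylation level of 3 Space replicates (%, y axis) against 3 Ground replicates (%, x axis) at the 909 CpG sites. Black points are promoter sites, orange points distal sites, the gray line marks equal levels, and dashed lines mark a difference of 20 percentage points, beyond which 3 sites lie above and 1 below.

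Runs of 3 or more sites with gaps of up to 100 bp gave 51 regions in the 10 genes, 1 of them shared with *Ctbp2*. Of these, 35 were at 10% or less, 9 were between 10% and 90%, and 7 were at 90% or more. There were 0 that passed the adjusted threshold and 2 with an unadjusted p under 0.05, against 0 (0.0%) and 2776 (5.65%) of 49134 regions, and groups did not overlap in 2, 1 in each direction, against 9.25% (5.11% higher and 4.13% lower in Space). The 2 regions that did not overlap were upstream of *Gfra2*, lower in Space, and 7930 to 8002 bp downstream of the *Fgfr2* TSS. The *Fgfr2* region was at 3.41% ± 2.24 in Space and 0.646% ± 0.633 in Ground GS cells (unadjusted p = 0.0603, adjusted p = 0.864, quasi-binomial test with limma's moderation). It had 4 sites and 146 to 168 reads per sample, so few methylated reads stand behind these levels.

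The *Gfra2* region held 10 sites from 1458 to 1277 bp upstream of the TSS (chr14:71126102-71126283). It was at 2.25%, 0.738%, and 0.412% in Space and 16.6%, 3.72%, and 5.35% in Ground GS cells, a difference of -7.42 (unadjusted p = 0.0104, adjusted p = 0.864, quasi-binomial test with limma's moderation). In its last 7 sites, 1379 to 1277 bp upstream and picked out after the values were seen, the methylated reads summed over sites were 0 of 140, 1 of 133, and 0 of 105 in Space and 37 of 133, 7 of 119, and 8 of 91 in Ground GS cells. Each sample had the same number of reads at all 7 sites, so the counts of 0 rest on 20 and 15 reads and allow levels of up to 15% and 20%. Ground replicate 1 had 19 reads at each site, so few reads stand behind its value. Without this replicate the difference of the region was -3.40. A minimum of 20 reads removes all 7 sites, which had 13 reads each in Ground replicate 3. The other sites of the region then differed by -0.989, a value that does not bear on the 7.

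The other region with an unadjusted p under 0.05 was that of the 93 *Fgfr1* sites at the downstream starts. Its levels were 2.34%, 1.38%, and 3.58% in Space and 1.32%, 1.66%, and 0.775% in Ground GS cells, with an overlap of the groups (unadjusted p = 0.0259, adjusted p = 0.864). Both groups were in the range of unmethylated promoters.

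**Figure D5:**
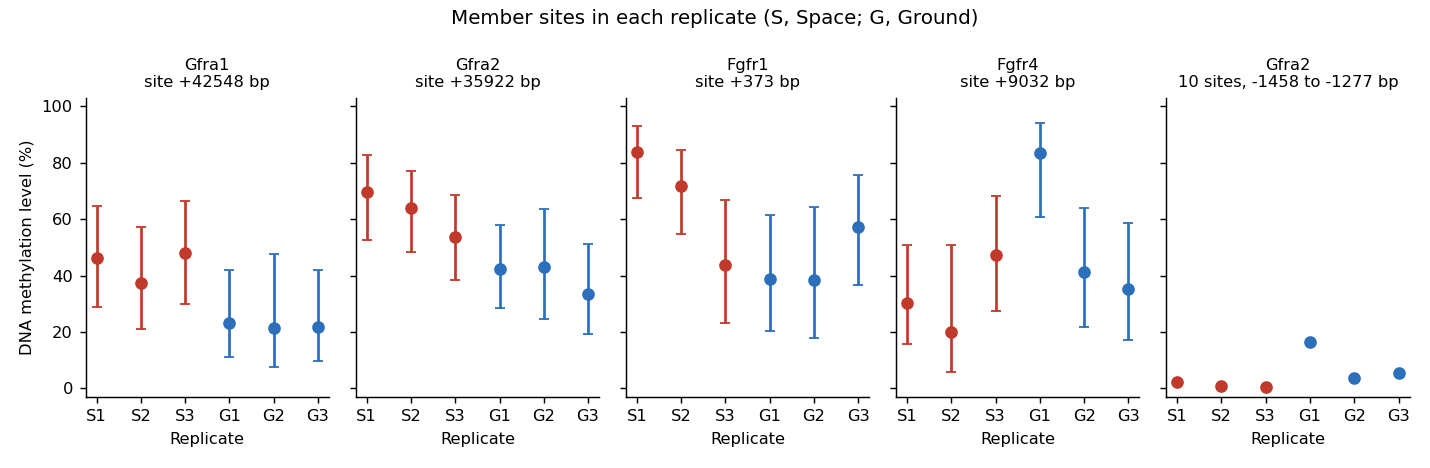
DNA methylation level (%, y axis) in each replicate (x axis, S for Space in red and G for Ground in blue) at the 4 sites that differed by more than 20 percentage points, with 95% Wilson intervals as bars, and in the 10-site region upstream of *Gfra2* (right panel, no interval). The groups separate in the *Gfra1*, *Gfra2*, and region panels and overlap in the *Fgfr1* and *Fgfr4* panels.

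Other genes of the GDNF and FGF pathways were measured as a list of 59. Of their promoters, 52 had at least 3 sites, 51 were at 10% or less, and 0 passed the adjusted threshold, with 1 higher and 1 lower at an unadjusted p under 0.05. The median difference was 0.271 percentage points, against 0.0872 over all genes. The 2 were *Fgf2*, the growth factor of the culture medium, at 4.19%, 1.95%, and 1.88% in Space and 1.24%, 1.0%, and 0.905% in Ground GS cells, and *Ncam1*, an adhesion molecule that can act as a GDNF coreceptor, at 1.28% ± 1.08 and 3.05% ± 0.246, which was chosen after its value was seen.

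By subgroup, all 6 ligand promoters measured, all 6 coreceptors, all 10 adaptors, 14 of 15 kinases and GTPases, all 8 inhibitors, and all 7 targets were at 10% or less. The exception was *Src*, a cytoplasmic tyrosine kinase, with 49.6% ± 7.59 and 47.4% ± 7.12 over 4 sites. Promoters of *Etv5* (1.99% ± 0.674 and 1.69% ± 0.547) and *Bcl6b* (2.90% ± 3.59 and 2.17% ± 0.584), transcription factor genes induced by GDNF in spermatogonia, and of *Spry4* (1.65% ± 1.21 and 1.77% ± 0.960), a feedback inhibitor of receptor tyrosine kinases, and *Frs2* (1.56% ± 0.719 and 1.55% ± 0.436), the FGF receptor adaptor, overlapped between the groups. *Klb*, an FGF coreceptor, was at 3.92% ± 0.939 and 1.5% ± 1.10 without overlap (unadjusted p = 0.0972, adjusted p = 0.928, quasi-binomial test with limma's moderation).

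At distal sites, 42 genes of the list were tested and 0 passed the adjusted threshold. Over all genes, 5.48% had an unadjusted p under 0.05, 656 of them higher and 286 lower in Space GS cells. In the list 6 genes had such a p, all higher in Space GS cells. They were chosen after their values were seen and were *Fgf8*, *Mycn*, *Sos1*, *Spred1*, *Spred2*, and *Spry1*, of which *Spry1*, *Spred1*, and *Spred2* are in the list of inhibitors. Of the 6 inhibitor genes tested, 4 had a higher and 2 a lower level in Space GS cells, the latter being *Cbl* and *Spry2*. *Spry1* was at 46.3% ± 2.45 and 40.7% ± 2.31, and *Spred1* at 64.3% ± 4.55 and 55.9% ± 5.64 over 8 sites. The Space minus Ground difference was positive in 32 and negative in 10 of the 42, against 9446 and 7757 of all genes. Its median was 1.29 percentage points, against 0.238 over all genes. Groups did not overlap in 9 of the 42, against 9.74% of all genes. *Cbl*, a ubiquitin ligase for receptor tyrosine kinases in the same list, was one of the 2 with the largest distal difference, at 54.9% ± 0.151 and 62.6% ± 4.69 over 3 sites (adjusted p = 0.950).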

How the data were processed

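DNA methylation was measured by RRBS (Zymo-Seq RRBS Library Kit) in 3 Space and 3 Ground samples of GS cells. The authors deposited 1 table with, for each of 2268080 CpG sites and each sample, the coverage (a count of reads) and the percent of those reads called methylated, with the closest TSS and the deposited distance to it in bp. The submitters' processing notes name Trim Galore, Bismark 0.24.2, methylKit, and mm39. Their settings and the handling of duplicate reads are not given in the sources used here, and lost or merged reads would change coverage and levels. The strain differs from the reference, and a strain variant at a CpG could change its level. Columns that could not be assigned to a sample numbered 0. Positions are the second coordinate of each interval in the table.

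The number of methylated reads is coverage multiplied by the percent, within 0.000266 of a whole read. Sites needed 10 or more reads in every sample, and their reads were summed, with at least 3 sites per gene or region. Methylated and total reads were compared with a quasi-binomial test whose Pearson dispersion was moderated by squeezeVar of limma 3.58.1 (R 4.3.3), with Benjamini-Hochberg adjustment over all features and a threshold of 0.05. The test was also run on simulated reads, drawn independently for each feature with a fixed dispersion. Neighboring sites that share reads were not simulated, and no conclusion is drawn from that run. Single sites were tested if their mean level was 5% to 95%. Single values used exact permutation or sign-flip tests. Intervals are 95% Wilson intervals, and a count of 0 allows 3 reads. The chi-square per degree of freedom between samples was 1.30 to 1.44 both within and between groups, so no pair was closer than sampling noise. Alternatives used other coverage minimums, windows, and region gaps, edgeR 4.0.16, limma on log2 ratios with 2 added, equal weight per site, a replicate block, and each replicate left out. Figures were drawn with matplotlib 3.10.9.

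The 10 genes and all gene lists were chosen with earlier results of these data known. All members were named. From the pathway list *Fgf2*, *Etv5*, *Bcl6b*, *Spry4*, and *Frs2* were named whatever their values, with the 2 largest promoter and the 2 largest distal differences. For *Gfra1*, *Ret*, and *Fgfr1* the 2 genes with the closest levels were named, and single sites were named beyond 20 percentage points. Of the sites on chromosome 19, 1.26% had a CG at the same GRCm38 position, so exons and introns were not assigned, and the rule to print promoter windows with measured sites could not be applied. Windows were chosen to show the CG content of *Gfra1*, *Gfra4*, and *Fgfr3*.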

Additional observations from a re-analysis of the deposited data

How the results depend on the processing

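Over 295 alternatives for the promoter and distal differences of the 10 genes, 0 passed the adjusted threshold (smallest adjusted p = 0.518, limma-moderated or edgeR tests) and 27 changed sign. The *Gdnf* promoter difference was 0.913 with at least 20 reads and 0.333 with a window of 2000 bp, that of *Fgfr2* was -0.142 with equal weight per site, -0.00791 and -0.0287 with at least 5 and 20 reads, and -0.158 and -0.0502 with windows of 500 and 2000 bp, and that of *Fgfr3* was 0.113 with a window of 2000 bp. The distal difference with equal weight per site was -2.88 for *Gfra2*, 1.52 for *Gfra3*, and 0.235 for *Fgfr2*. It was -0.124 for *Gfra2* within 20000 bp, 0.114 for *Ret* with at least 20 reads, and 3.39 for *Fgfr2* beyond 2000 bp. With single replicates left out, promoter differences ranged from -1.42 to 0.290 for *Gfra1*, -0.372 to 1.01 for *Gfra3*, -0.415 to 0.382 for *Gdnf*, and -0.399 to 0.272 for *Fgfr2*, and distal differences from -0.0695 to 3.38 for *Gfra1*, -1.51 to 6.81 for *Gfra2*, -5.88 to 1.79 for *Gfra3*, -1.76 to 0.519 for *Ret*, and -0.238 to 0.216 for *Fgfr2*. The cause was not tested. The *Gdnf* distal difference kept its sign in all 15 alternatives, from 1.38 to 2.96 (adjusted p from 0.518 to 0.997).

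The mean promoter difference of all genes ranged from -0.0401 to 0.294 with single replicates left out, and the count of single sites past the threshold from 0 to 5 over all genes (5 without Ground replicate 1, 3 without Space replicate 3, 1 without Space replicate 2), of which 0 were member sites. *Gfra4* had a distal minus promoter level of 32.5 with a window of 2000 bp. The members with a lower distal level in every sample numbered 0 with at least 20 reads. They numbered 1 with a window of 500 bp and 0 with a window of 2000 bp. These settings change which sites remain or form the window. With at least 20 reads *Gfra3*, *Gfra4*, *Fgfr1*, and *Fgfr4* had too few sites for this comparison. With a window of 500 bp *Gfra4* had too few. The members whose promoter to distal difference did not overlap between groups numbered 0 with at least 20 reads and 2 with a window of 500 or 2000 bp. The shares of all genes were 9.93% with at least 20 reads and 9.74% and 9.65% with the 2 windows. With single replicates left out, 1 to 6 members did not overlap, against 19.5% to 21.6% of all genes. Sample descriptions of the same replicate number carry consecutive numbers, and whether such samples were handled as pairs is not stated. Deviations of same-numbered Space and Ground samples correlated at 0.00988 to 0.0438, against -0.0367 to 0.0146 for differently numbered ones. These values cannot tell whether the samples were paired. With a replicate block, 3 members had 1 sign in all 3 pairs, as did 25.7% of all genes, and 0 promoters, distal sets, sites, or regions passed the threshold.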
